A study of Mus musculus with 6 samples.

Results

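The genes described here encode enzymes that break down amino acids in mouse liver. The list of 44 genes was given by name and ordered by pathway, from histidine through the aromatic amino acids, lysine, the branched-chain amino acids and the proline, glutamate and alanine group to glycine, serine and the sulfur amino acids. Of these, 42 had a row among the 20894 genes of the table and 37 had enough counts to be tested. Got1 and Gpt2 were not analysed here. The samples were liver tissue of Irf3LSL-2D mice, which carry an allele (2D) of IRF3, a transcription factor of the antiviral response, behind a stop cassette that Cre removes. The 2D form is known as a constitutively active one. The IRF3-2D group was injected with the adeno-associated virus AAV8-TBG-Cre and the Ctrl group with AAV8-TBG-GFP, each with 3 liver libraries, where the TBG promoter directs expression to hepatocytes. Mice of both groups received ethanol at 3 g/kg by intraperitoneal injection and were killed 2 h later, so no group without ethanol was compared. The groups differ in Cre against GFP as well as in the state of the allele, and these effects cannot be told apart. Neither age, sex nor the number of allele copies is given in the labels, and they do not state whether each library is from its own animal. P-values therefore reflect how much these libraries vary, and part of that variation may be technical.

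The liver takes most amino acids other than the branched-chain ones from the portal blood and oxidises them. The nitrogen passes through transaminases and glutamate dehydrogenase towards urea, and the carbon enters glucose, ketone bodies or the tricarboxylic acid cycle. Several of these enzymes, among them those of histidine and serine breakdown, are known to be most abundant around the portal vein and to follow glucagon and glucocorticoid signals. Inherited loss of many of them causes known disorders such as tyrosinaemia, maple syrup urine disease and nonketotic hyperglycinaemia.

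Libraries held 12054096 to 13606973 counts in the IRF3-2D group and 13940893 to 14830629 in the Ctrl group, and Irf3 itself, at 106 to 137 CPM (counts per 1000000 counts, scaled with TMM factors) in IRF3-2D and 42.6 to 60.3 CPM in Ctrl libraries, was in the direction the labels give. Of the hepatocyte markers tested, 5 of 6 fell and 1, Ttr, rose, and their summed level was 69413 to 82050.2 CPM in IRF3-2D and 132159.7 to 180943 CPM in Ctrl libraries. Kupffer cell and macrophage markers summed to 924 to 1255 CPM in IRF3-2D and 514 to 612 CPM in Ctrl libraries (4 of 11 tested rose). Within that sum, Mpeg1 alone stood at 439 to 561 CPM in IRF3-2D and 103 to 163 CPM in Ctrl libraries (4.14-fold). Cd5l, C1qa and C1qb rose 1.39-fold to 1.62-fold, and the rest, Clec4f and Vsig4 among them, were not called. Endothelial markers summed to 349 to 468 CPM in IRF3-2D and 529 to 554 CPM in Ctrl libraries (5 of 10 fell). Of the stellate markers 1 of 6 fell, with Pdgfrb at 0 throughout. Ccl5, the single T and NK cell marker tested, rose. The others of that list were too low to be tested, with Cd3e, Cd8a and Nkg7 at 0 to 1.56 CPM and Cd3g at 0 in every library. Whether the rise of Ccl5 comes from these cells was not tested. No call by edgeR was made among the tested markers of B cells (2), neutrophils (1), cholangiocytes (5) or the erythroid line (5). At an unadjusted p under 0.05, 2 cholangiocyte markers and none of the other 8 passed, and DESeq2 called 1 cholangiocyte marker. In bulk liver, fewer cells of a type and less RNA per cell cannot be told apart, and the part of these markers in the results below was not tested. Mitochondrially encoded genes held 7.87% to 8.79% of counts in IRF3-2D and 11.5% to 12.03% in Ctrl libraries.

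Genes of amino acid breakdown were more often lower than higher in IRF3-2D liver. At a Benjamini-Hochberg adjusted p under 0.05 by edgeR's quasi-likelihood test over 10802 genes, 18 of the 37 tested members fell and 2 rose, where 13.1% of all tested genes fell and 13.2% rose. Their median log2 fold change (IRF3-2D over Ctrl) was -0.44, and that of all tested genes was 0.03. In 24 members every IRF3-2D library was below every Ctrl library, and in 2 every one was above, where 21.2% and 23.7% of all tested genes had no such overlap. Among called members, the steepest falls were in Hal of histidine breakdown, Prodh2 of hydroxyproline breakdown and Sardh of sarcosine breakdown, at 2.74-fold to 3.03-fold. Agxt2 and Gldc, both in the glycine and serine group, were the 2 that rose.

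These counts depend on how libraries are scaled. The 20 most abundant genes held 22.5% to 24.5% of counts in IRF3-2D and 33.5% to 35.7% in Ctrl libraries. With library totals alone in place of TMM, the median log2 fold change of all tested genes was 0.49 and that of the 37 members 0.01. On that scale 7 members fell and 6 rose, against 5.29% and 41.7% of all tested genes. Hal, Gcdh, Prodh2, Aldh4a1, Sardh, Pipox and Gcsh fell under both scalings, and Agxt2 and Gldc rose under both. The 42 members with a row together held 0.954% to 1.09% of counts in IRF3-2D libraries and 0.962% to 1.06% in Ctrl libraries, ranges that overlap. Levels and fold changes below are on the TMM scale unless library totals are named.

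**Figure D1:**
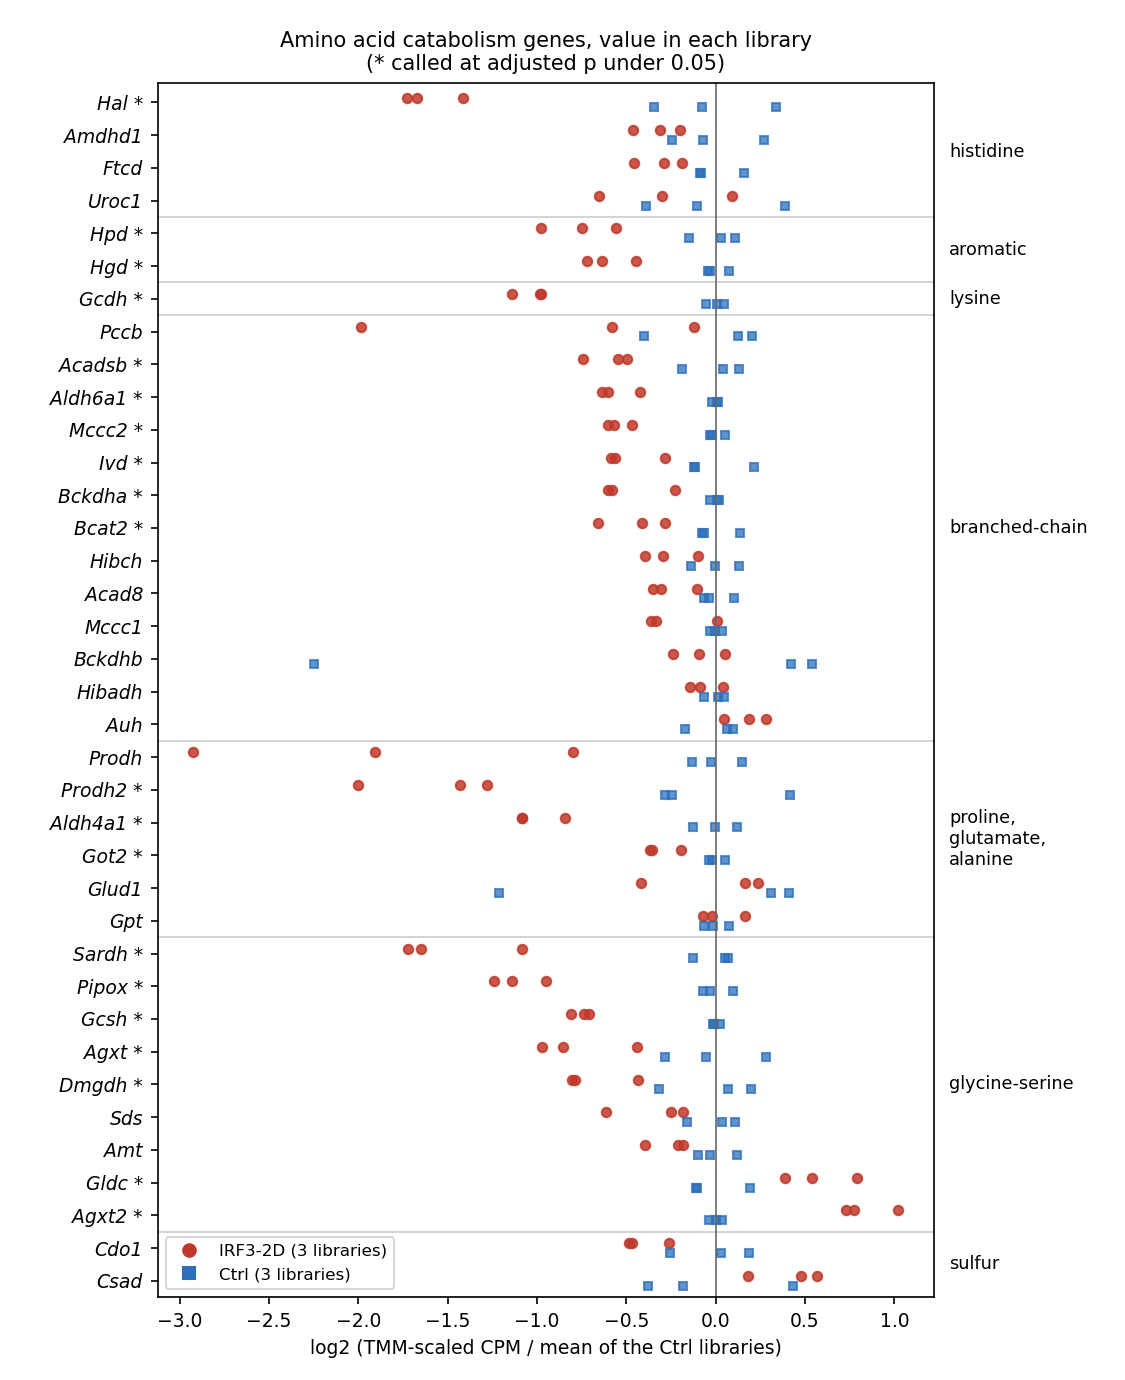
Value of each of the 37 tested members in every library, as log2 of its TMM-scaled CPM over the mean of the Ctrl libraries, with IRF3-2D libraries as circles and Ctrl libraries as squares. Asterisks mark the 18 members that fell and the 2 that rose, and in each of these 20 no IRF3-2D circle overlaps the Ctrl squares.

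**Figure D2:**
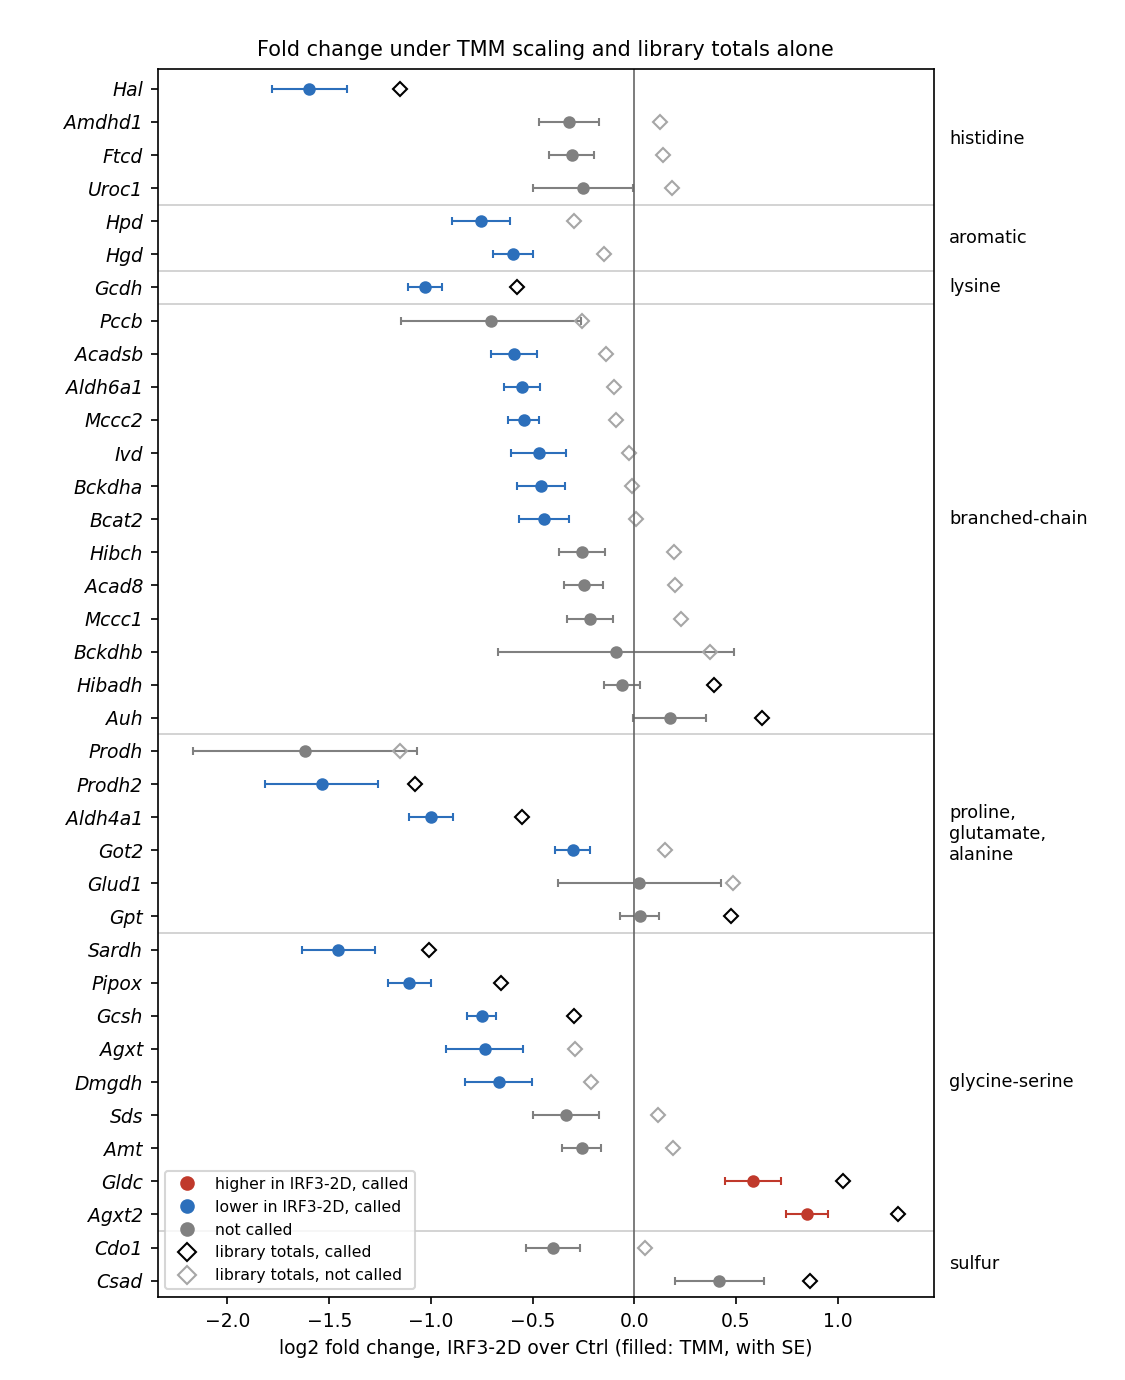
Log2 fold change of IRF3-2D over Ctrl for the same 37 members, with filled points for TMM scaling (bars are SE) and open diamonds for library totals alone. Diamonds lie to the right of the filled points throughout, and 7 members that fell and 6 that rose are called on that scale.

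Some members stood near 0 in every library although the liver is known to express them. The cause was not tested, and the annotation and gene summing behind the counts are not given. Fah, the last enzyme of tyrosine breakdown, had 0 to 7 counts per library, and Dbt, the transacylase core of the branched-chain dehydrogenase complex, had 2 to 5. Pcca, the biotin-carrying subunit of propionyl-CoA carboxylase, had 2 to 8 counts, and Aass, which starts lysine breakdown, had 3 to 12. Sdsl, a relative of serine dehydratase, had 0 to 20. None of these 5 passed the count filter, and no fold change is given for them. Whether the rows of tested members with low counts, such as Hpd and Prodh, hold all of their transcripts was not tested.

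Histidine is broken down in 4 steps, and the enzyme of the first fell, whereas those of the later 3 did not pass the test. Whether they differ from it was not tested. Hal (ENSMUSG00000020017, chromosome 10, 93488768 to 93519304, plus strand of GRCm38), histidine ammonia-lyase, removes the amino group and forms urocanate. It stood at 210.4, 218 and 261 CPM in IRF3-2D libraries, against 878, 549 and 660.3 CPM in Ctrl libraries. Every IRF3-2D library was under every Ctrl library, and Hal fell 3.03-fold (log2 fold change -1.60, SE 0.19, adjusted p = 0.0012 by edgeR). Uroc1, urocanase, stood at 35.3, 27.6 and 46.3 CPM in IRF3-2D libraries, against 56.8, 40.4 and 33.1 CPM in Ctrl libraries, with groups that overlap (log2 fold change -0.25, adjusted p = 0.49). Amdhd1, the imidazolonepropionase and a gene with 1 annotated transcript, averaged 249 ± 23 CPM in IRF3-2D and 311 ± 58 CPM in Ctrl libraries (SD, n = 3 each; log2 fold change -0.32). Ftcd, which passes the one-carbon unit to folate and releases glutamate, averaged 277 ± 25.3 CPM in IRF3-2D and 343 ± 34 CPM in Ctrl libraries (SD, n = 3 each; log2 fold change -0.31, adjusted p = 0.083 by edgeR and 0.02 by DESeq2). Its IRF3-2D libraries all lay under its Ctrl libraries. With library totals alone, log2 fold changes of Uroc1, Amdhd1 and Ftcd were 0.19, 0.12 and 0.14, while that of Hal was -1.15. Hdc, which turns histidine into histamine and is the other gene listed for this amino acid, was not called (log2 fold change 0.16).

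Both tested enzymes of the shared tyrosine and phenylalanine route fell on the TMM scale. Hpd, which oxidises 4-hydroxyphenylpyruvate to homogentisate, stood at 12.9, 17.3 and 15.1 CPM in IRF3-2D libraries, against 27.4, 23 and 25.9 CPM in Ctrl libraries (log2 fold change -0.75, SE 0.14, adjusted p = 0.0087 by edgeR). Hgd, which opens the ring of homogentisate, stood at 569, 538 and 650.0 CPM in IRF3-2D libraries, against 932, 858 and 866 CPM in Ctrl libraries (log2 fold change -0.60, SE 0.10, adjusted p = 0.0052 by edgeR). Neither gene's groups overlapped, yet neither passed the test with library totals alone, where log2 fold changes were -0.30 and -0.15. Of 5 further genes listed for this route, 4 were tested and 2 fell. Tat, the tyrosine aminotransferase that opens the route, fell 3.47-fold (7.09 ± 0.974 CPM in IRF3-2D and 24.7 ± 3.78 CPM in Ctrl libraries, SD, n = 3 each; adjusted p = 0.00057 by edgeR) and was also lower with library totals alone (log2 fold change -1.34). Gstz1, the maleylacetoacetate isomerase between Hgd and Fah, fell 1.47-fold (adjusted p = 0.0069 by edgeR), but not with library totals alone (-0.10).

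In lysine breakdown 1 member was tested. Gcdh (ENSMUSG00000003809, chromosome 8, 84886393 to 84893921, minus strand), glutaryl-CoA dehydrogenase of the mitochondrial matrix, also serves tryptophan and hydroxylysine. It stood at 86.5, 77.4 and 86.3 CPM in IRF3-2D libraries, against 164, 176 and 171 CPM in Ctrl libraries. The groups lay far apart relative to their spread, and Gcdh fell 2.04-fold (log2 fold change -1.03, SE 0.08, adjusted p = 0.00028 by edgeR), with a log2 fold change of -0.58 with library totals alone. All 4 further lysine genes were tested and 2 fell. Aadat, which transaminates 2-aminoadipate, fell 2.01-fold (adjusted p = 0.0076 by edgeR). Dhtkd1, a subunit of the 2-oxoadipate dehydrogenase complex, fell 1.42-fold (adjusted p = 0.039 by edgeR), a call lost with library totals alone (-0.06) and on leaving out any library except IRF3-2D replicate 3 (log2 fold changes -0.69 to -0.41 over the 6 single-library omissions).

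Falls among branched-chain amino acid genes were of 1.36-fold to 1.51-fold, and none was called with library totals alone. Of 15 members 13 were tested, 6 fell and none rose by edgeR (also 0 by DESeq2 and 0 at an unadjusted p under 0.05), with log2 fold changes from -0.70 to 0.17 (median -0.44). Among all tested genes 13.1% fell and 13.2% rose. With library totals alone, 2 of the 13, Hibadh and Auh, were higher and none was lower by edgeR. On that scale 41.7% of all tested genes were higher and 5.29% lower. Hibadh's log2 fold change there was 0.39, beside a median of 0.49 for all tested genes. The pathway starts with transamination and an oxidative decarboxylation shared by leucine, isoleucine and valine. Bcat2, the mitochondrial branched-chain transaminase, fell 1.36-fold (adjusted p = 0.036 by edgeR). Bckdha, the alpha subunit of the E1 decarboxylase of the dehydrogenase complex, stood at 164, 166 and 212 CPM in IRF3-2D libraries, against 251, 244 and 252 CPM in Ctrl libraries (log2 fold change -0.46, SE 0.12, adjusted p = 0.027 by edgeR). Some 54.6% of its sequence words of 31 bases lie antisense to transcripts of another gene, and the strand setting of the counting is not given in the sources used here. Bckdhb, the beta subunit of the same E1 enzyme, stood at 48.6, 44 and 53.9 CPM in IRF3-2D libraries, against 10.9, 69.5 and 75.5 CPM in Ctrl libraries. Ctrl replicate 1 was far under both other Ctrl libraries. Bckdhb was not called with all 6 libraries (log2 fold change -0.09), but without Ctrl replicate 1 it was lower, with a log2 fold change of -0.57 (adjusted p = 0.015 by edgeR). Over all single-library omissions it ran from -0.57 to 0.28.

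On the leucine branch, Ivd, isovaleryl-CoA dehydrogenase, fell 1.39-fold (adjusted p = 0.039 by edgeR). The next enzyme, methylcrotonyl-CoA carboxylase, has an alpha subunit, Mccc1, that binds biotin and a beta subunit, Mccc2. Mccc2 stood at 57.1, 58.4 and 62.6 CPM in IRF3-2D libraries, against 85.4, 89.8 and 84.5 CPM in Ctrl libraries (log2 fold change -0.54, SE 0.07, adjusted p = 0.0024 by edgeR). Its groups did not overlap. Mccc1 stood at 64.2, 65.4 and 83 CPM in IRF3-2D libraries, against 82.3, 80.6 and 84.6 CPM in Ctrl libraries, with IRF3-2D replicate 3 inside the Ctrl range. Its log2 fold change was -0.22 (adjusted p = 0.20 by edgeR), and -0.36 without that library (adjusted p = 0.028 by edgeR). Over all single-library omissions it ran from -0.36 to -0.16. Auh, the methylglutaconyl-CoA hydratase that follows, averaged 8.45 ± 0.701 CPM in IRF3-2D and 7.49 ± 0.74 CPM in Ctrl libraries (SD, n = 3 each) and was not called.

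On the isoleucine and valine branches, Acadsb, the short and branched-chain acyl-CoA dehydrogenase, stood at 30.1, 34.5 and 35.8 CPM in IRF3-2D libraries, against 51.9, 44.2 and 55.2 CPM in Ctrl libraries (log2 fold change -0.59, SE 0.11, adjusted p = 0.0094 by edgeR). Aldh6a1, methylmalonate semialdehyde dehydrogenase at the end of the valine route, stood at 463, 453 and 524 CPM in IRF3-2D libraries, against 709, 707 and 694 CPM in Ctrl libraries (log2 fold change -0.55, SE 0.09, adjusted p = 0.0044 by edgeR). In both genes the groups were separate. Acad8, Hibch and Hibadh, valine enzymes that act before Aldh6a1, were not called. Acad8, isobutyryl-CoA dehydrogenase, averaged 77.8 ± 7.2 CPM in IRF3-2D and 92.4 ± 5.8 CPM in Ctrl libraries (SD, n = 3 each; log2 fold change -0.25). Hibch, which frees 3-hydroxyisobutyrate from its CoA ester, averaged 111 ± 11.8 CPM in IRF3-2D and 132 ± 12.5 CPM in Ctrl libraries (-0.26). The dehydrogenase of that acid, Hibadh, averaged 424 ± 28.3 CPM in IRF3-2D and 442 ± 17.1 CPM in Ctrl libraries (-0.06). The IRF3-2D libraries overlapped the Ctrl libraries in Hibch and Hibadh and lay under them in Acad8. Pccb, the carboxylating subunit of propionyl-CoA carboxylase, ranged from 2.46 to 8.91 CPM in IRF3-2D and from 7.35 to 11.2 CPM in Ctrl libraries and was not called (adjusted p = 0.29 by edgeR). The calls of Bcat2, Bckdha and Ivd were each lost on leaving out any library except IRF3-2D replicate 3, with log2 fold changes of -0.61 to -0.34 over all single-library omissions. With the replicate numbers as a block, Bcat2 and Ivd were not called (adjusted p = 0.089 and 0.078 by edgeR). Bcat2 was also not called without the count filter, and 14.9% of its sequence words lie antisense to transcripts of another gene.

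Of 11 further branched-chain genes 8 were tested, 4 fell and none rose. Ppm1k, the phosphatase known to activate the branched-chain dehydrogenase complex, fell 2.07-fold, at 41.7 ± 1.71 CPM in IRF3-2D and 86.4 ± 11.9 CPM in Ctrl libraries (SD, n = 3 each; adjusted p = 0.00083 by edgeR). Bckdk, the kinase known to oppose it, averaged 8.33 ± 1.28 CPM in IRF3-2D and 8.79 ± 1.58 CPM in Ctrl libraries (SD, n = 3 each) and was not called. Ppm1k was also lower with library totals alone, with a log2 fold change of -0.60.

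In the proline, glutamate and alanine group, 2 dehydrogenases of proline and hydroxyproline breakdown, Prodh2 and Aldh4a1, fell. Of 8 members 6 were tested and 3 fell, where 13.1% of all tested genes fell. Prodh2, hydroxyproline dehydrogenase, stood at 4.01, 5.96 and 6.62 CPM in IRF3-2D libraries, against 13.6, 21.4 and 13.2 CPM in Ctrl libraries (log2 fold change -1.54, SE 0.28, adjusted p = 0.0073 by edgeR). Its groups lay far apart, and it fell 2.90-fold, also with library totals alone (log2 fold change -1.08). Prodh, the proline dehydrogenase proper, was listed at 0.388, 1.69 and 0.787 CPM in IRF3-2D libraries, against 3.27, 2.69 and 2.89 CPM in Ctrl libraries. Its groups did not overlap. It missed the threshold (log2 fold change -1.62, SE 0.55, adjusted p = 0.07 by edgeR) and passed it by DESeq2 (adjusted p = 0.03) and limma-voom (0.033). Aldh4a1 (ENSMUSG00000028737, chromosome 4, 139622866 to 139649690, plus strand), the dehydrogenase that takes the products of both to glutamate or its hydroxylated form, stood at 277, 277 and 327 CPM in IRF3-2D libraries, against 637, 538 and 586 CPM in Ctrl libraries. It fell 2.00-fold (log2 fold change -1.0, SE 0.11, adjusted p = 0.00092 by edgeR), and 31% of its sequence words also occur in transcripts of another gene, so the placing of its reads is uncertain.

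Of the tested members Got2, Gpt and Glud1, Got2 fell and the other two did not pass the test. Got2, the mitochondrial aspartate aminotransferase, stood at 569, 564 and 635 CPM in IRF3-2D libraries, against 755, 709 and 716 CPM in Ctrl libraries (log2 fold change -0.30, SE 0.09, adjusted p = 0.04 by edgeR), with groups that did not overlap. Its call was lost with library totals alone (log2 fold change 0.15) and on leaving out any library except IRF3-2D replicate 3 (-0.37 to -0.27 over all single-library omissions). It was also lost without the count filter and with the replicate numbers as a block (adjusted p = 0.081 by edgeR). Of its sequence words, 20.3% are shared with other genes and 27.4% lie antisense to transcripts of another gene. Gpt, alanine aminotransferase, stood at 283, 273 and 321 CPM in IRF3-2D libraries, against 284, 274 and 303 CPM in Ctrl libraries, with groups that overlap (log2 fold change 0.03, SE 0.10, adjusted p = 0.86 by edgeR). With library totals alone Gpt was higher (log2 fold change 0.48), where the median of all tested genes was 0.49. Glud1, glutamate dehydrogenase, was listed at 15.5, 24.3 and 23.1 CPM in IRF3-2D libraries, against 25.6, 27.4 and 8.91 CPM in Ctrl libraries, with Ctrl replicate 3 under all others, and was not called. Of 6 further genes of this group all were tested, 2 fell and none rose. Oat, ornithine aminotransferase, which feeds the same pyrroline carboxylate pool as proline, fell 5.63-fold, at 129.6 ± 20 CPM in IRF3-2D and 729 ± 226 CPM in Ctrl libraries (SD, n = 3 each; adjusted p = 0.00071 by edgeR). Aspg, an asparaginase, fell 2.20-fold (adjusted p = 0.00038 by edgeR). Both also fell with library totals alone.

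The glycine and serine group held both the rises and some of the steepest falls. Of 10 members 9 were tested, 5 fell (55.6%) and 2 rose (22.2%), where 13.1% of all tested genes fell and 13.2% rose. Glycine is made from dimethylglycine through sarcosine by Dmgdh and Sardh in mitochondria, and Pipox oxidises sarcosine and pipecolate in peroxisomes. Sardh (ENSMUSG00000009614, chromosome 2, 27188393 to 27248337, minus strand) stood at 347, 365 and 538 CPM in IRF3-2D libraries, against 1046, 1197 and 1186 CPM in Ctrl libraries (log2 fold change -1.46, SE 0.18, adjusted p = 0.0015 by edgeR). Its IRF3-2D libraries lay far under every Ctrl library, a 2.74-fold fall. Pipox stood at 159.8, 149 and 182 CPM in IRF3-2D libraries, against 335, 345 and 376 CPM in Ctrl libraries (log2 fold change -1.11, SE 0.10, adjusted p = 0.00054 by edgeR). Dmgdh stood at 471, 476 and 609 CPM in IRF3-2D libraries, against 660.4, 946 and 865 CPM in Ctrl libraries (log2 fold change -0.67, SE 0.16, adjusted p = 0.024 by edgeR). All 3 were separate between groups, and Sardh and Pipox also fell with library totals alone (log2 fold changes -1.01 and -0.66), while Dmgdh did not (-0.21). The call of Dmgdh was lost without IRF3-2D replicate 1 or 2 or Ctrl replicate 2 or 3 (-0.81 to -0.56 over all single-library omissions). Gnmt, which methylates glycine to sarcosine and is no member, averaged 927 ± 233 CPM in IRF3-2D and 1982 ± 222 CPM in Ctrl libraries (SD, n = 3 each), a 2.14-fold fall (adjusted p = 0.0055 by edgeR).

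Of the subunits of the glycine cleavage system, Gldc rose and Gcsh fell, also with library totals alone. In this mitochondrial complex the P protein (Gldc) decarboxylates glycine, the H protein (Gcsh) carries the aminomethyl group on a lipoyl arm and the T protein (Amt) passes its carbon to folate. Gldc (ENSMUSG00000024827, chromosome 19, 30098447 to 30175429, minus strand) stood at 389.7, 351 and 463 CPM in IRF3-2D libraries, against 306, 249 and 248 CPM in Ctrl libraries and rose 1.5-fold (log2 fold change 0.58, SE 0.14, adjusted p = 0.02 by edgeR). Gcsh stood at 66.8, 71.7 and 70.4 CPM in IRF3-2D libraries, against 116, 119 and 117 CPM in Ctrl libraries and fell 1.68-fold (log2 fold change -0.75, SE 0.07, adjusted p = 0.00058 by edgeR). Amt stood at 61.6, 54.3 and 62.8 CPM in IRF3-2D libraries, against 77.6, 69.9 and 66.5 CPM in Ctrl libraries and was not called (log2 fold change -0.26, adjusted p = 0.088 by edgeR). No IRF3-2D library overlapped a Ctrl library in any of the 3 genes. The log2 ratio of Gldc to Gcsh counts within a library, which no scaling can move, was 2.54, 2.29 and 2.72 in IRF3-2D libraries and 1.40, 1.06 and 1.09 in Ctrl libraries, a difference of 1.33. That ratio was chosen after the values were seen and is given without a test. The call of Gldc was lost without IRF3-2D replicate 1 or 3 or Ctrl replicate 2 or 3 (log2 fold changes 0.45 to 0.69 over all single-library omissions), and with library totals alone it was 1.03, while Gcsh was at -0.30. In Gcsh, 7.75% of the words also occur in other genes.

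Glyoxylate, which glycine and hydroxyproline breakdown can yield, is turned back into glycine by 2 aminotransferases in different compartments. Agxt works in peroxisomes of human liver, and its loss causes primary hyperoxaluria in humans, while Agxt2 is mitochondrial and also degrades beta-aminoisobutyrate and asymmetric dimethylarginine. Agxt2 (ENSMUSG00000089678, chromosome 15, 10358532 to 10410153, plus strand) stood at 419, 432 and 513 CPM in IRF3-2D libraries, against 259, 246 and 252 CPM in Ctrl libraries. Every IRF3-2D library was above every Ctrl library, and it rose 1.80-fold (log2 fold change 0.85, SE 0.10, adjusted p = 0.0014 by edgeR). Agxt stood at 209, 227 and 303 CPM in IRF3-2D libraries, against 499, 394 and 337 CPM in Ctrl libraries, again without overlap but in the other direction (log2 fold change -0.73, SE 0.19, adjusted p = 0.028 by edgeR). The call of Agxt was lost with library totals alone (-0.29) and without IRF3-2D replicate 1 or 2 or Ctrl replicate 1 or 2 (-0.92 to -0.57 over all single-library omissions). With the replicate numbers as a block it was lost too (adjusted p = 0.079 by edgeR). The log2 ratio of Agxt to Agxt2 counts within a library was -1.0, -0.93 and -0.76 in IRF3-2D libraries and 0.95, 0.68 and 0.42 in Ctrl libraries. Agxt2 thus had more counts than Agxt in each IRF3-2D library and fewer in each Ctrl library. The difference in the mean ratio was -1.58 (exact permutation p = 0.10, two-sided, the smallest that 3 libraries against 3 allow, adjusted to 0.20 over 4 ratios).

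**Figure D3:**
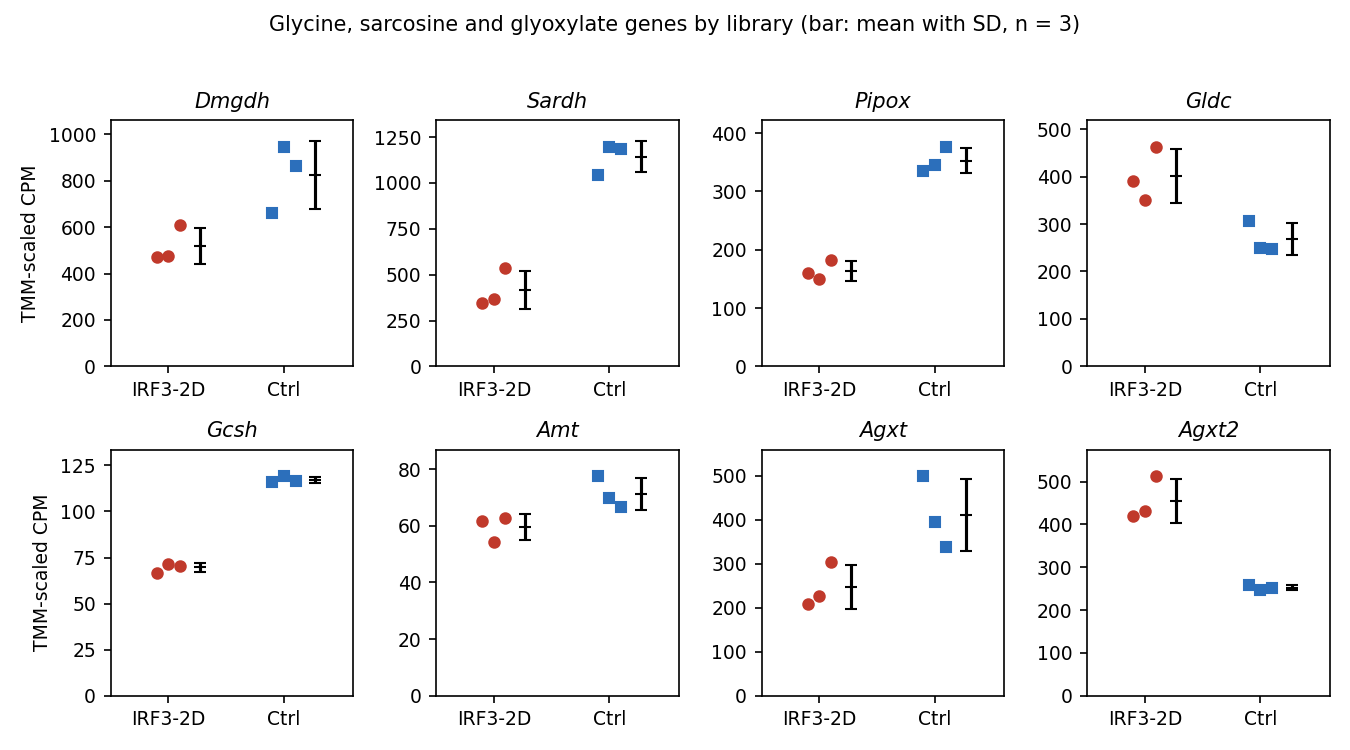
TMM-scaled CPM of 8 genes of glycine, sarcosine and glyoxylate metabolism in each IRF3-2D library (circles, left) and each Ctrl library (squares, right), with the mean and SD of 3 libraries beside them and axes from 0. Agxt2 and Gldc are higher in the IRF3-2D libraries, and the other 6 are lower, of which Amt was not called.

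The bases before the start sites of 4 of these genes show what the upstream sequence of the 2 that rose and of their partners looks like. They are the RefSeq windows of 250 bases (GRCm38.p6) that end just before the annotated start, read 5′ to 3′ in the direction of transcription, with Agxt2 at chr15:10358283-10358532 (plus strand), Agxt at chr1:93134990-93135239 (plus strand), Gldc at chr19:30175442-30175691 (minus strand) and Gcsh at chr8:116993499-116993748 (minus strand). Capitals mark a match to a searched motif.
Agxt2: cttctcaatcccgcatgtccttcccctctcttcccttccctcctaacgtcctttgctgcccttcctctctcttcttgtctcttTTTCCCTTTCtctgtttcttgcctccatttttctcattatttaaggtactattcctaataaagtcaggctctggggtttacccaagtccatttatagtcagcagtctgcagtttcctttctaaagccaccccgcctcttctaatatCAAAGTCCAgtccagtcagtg
Agxt: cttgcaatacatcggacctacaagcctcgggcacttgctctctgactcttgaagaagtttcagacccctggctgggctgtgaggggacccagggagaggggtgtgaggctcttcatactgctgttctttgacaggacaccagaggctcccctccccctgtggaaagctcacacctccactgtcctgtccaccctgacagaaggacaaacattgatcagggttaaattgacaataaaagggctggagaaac
Gldc: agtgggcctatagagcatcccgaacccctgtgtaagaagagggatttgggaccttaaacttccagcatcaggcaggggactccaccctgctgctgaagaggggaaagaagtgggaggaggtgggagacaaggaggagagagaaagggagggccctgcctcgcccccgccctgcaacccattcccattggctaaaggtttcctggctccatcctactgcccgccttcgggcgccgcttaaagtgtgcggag
Gcsh: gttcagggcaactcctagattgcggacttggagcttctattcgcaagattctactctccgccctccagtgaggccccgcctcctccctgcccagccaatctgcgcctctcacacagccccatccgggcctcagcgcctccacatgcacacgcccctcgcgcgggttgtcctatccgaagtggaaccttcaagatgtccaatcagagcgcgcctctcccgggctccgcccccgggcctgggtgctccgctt
The Agxt2 window holds the letters of an interferon-stimulated response element (GAAA, any 2 bases and GAAA again), read on the opposite strand, beginning 167 bases before the start, and CAAAGTCCA, letters bound by HNF4, beginning 21 bases before it. The windows of Agxt, Gldc and Gcsh hold neither.

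Across the members, 39 had a RefSeq window, and the 1 nearest the GENCODE start was used where a gene had several. The interferon-stimulated response element letters were found on either strand in 1 of the 39, that of Agxt2, against 2.98% of all 32851 windows, and CAAAGTCCA in the same 1 against 0.384%. The glucocorticoid response element letters (ACA and TGT 3 bases apart, each with its outer G or C 1 base further out) were in none of the 39 (0.387% of all windows). TTNCGNAA, letters of a C/EBP site, was in 1, that of Gcdh (2.04% of all windows). The motifs did not overlap each other in these windows. A match describes the letters only. For comparison, the windows of Gcdh (chr8:84893922-84894171, minus strand), with its C/EBP letters beginning 155 bases before the start, and of Hal (chr10:93488518-93488767, plus strand), the member with the steepest fall that was called, are shown in the same way.
Gcdh: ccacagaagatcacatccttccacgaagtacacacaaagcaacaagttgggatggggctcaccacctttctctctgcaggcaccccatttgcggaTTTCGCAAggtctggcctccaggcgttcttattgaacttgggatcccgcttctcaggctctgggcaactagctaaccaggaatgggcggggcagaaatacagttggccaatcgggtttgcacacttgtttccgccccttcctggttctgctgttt
Hal: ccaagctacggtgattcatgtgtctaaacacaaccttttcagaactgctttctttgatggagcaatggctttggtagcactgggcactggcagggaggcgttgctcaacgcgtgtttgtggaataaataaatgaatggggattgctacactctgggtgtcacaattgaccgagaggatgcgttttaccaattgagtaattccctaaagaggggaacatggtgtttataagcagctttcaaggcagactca

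Among the remaining genes of the group, Sds was not called and most further genes fell. Sds, serine dehydratase, which makes pyruvate from serine, averaged 13.3 ± 2.04 CPM in IRF3-2D and 16.7 ± 1.57 CPM in Ctrl libraries (SD, n = 3 each) and was not called (adjusted p = 0.17 by edgeR). Of 10 further glycine and serine genes 7 were tested, 5 fell and none rose. Gcat, on 2 rows whose sequence overlaps, was left out. Shmt2, the mitochondrial serine hydroxymethyltransferase, fell 2.19-fold, at 103 ± 18.3 CPM in IRF3-2D and 225 ± 17.9 CPM in Ctrl libraries (SD, n = 3 each; adjusted p = 0.0016 by edgeR). It fell with library totals alone too (log2 fold change -0.68), as Gnmt did (-0.65).

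Neither sulfur amino acid member passed edgeR's test after adjustment, and 1, Cdo1, had an unadjusted p under 0.05. Cdo1, cysteine dioxygenase, which commits cysteine to taurine or sulfate, stood at 1274, 1285 and 1488 CPM in IRF3-2D libraries, against 1493, 1822 and 2029 CPM in Ctrl libraries (log2 fold change -0.40, adjusted p = 0.064 by edgeR). Its groups did not overlap, and it was called lower by DESeq2 (adjusted p = 0.0073). Csad, cysteine sulfinate decarboxylase on the way to taurine, stood at 563, 459 and 599 CPM in IRF3-2D libraries, against 356, 311 and 546 CPM in Ctrl libraries, with Ctrl replicate 3 within the IRF3-2D range (log2 fold change 0.42, adjusted p = 0.20 by edgeR). Without Ctrl replicate 3 its log2 fold change was 0.69 (adjusted p = 0.028 by edgeR), the highest of the single-library omissions, which ran from 0.26 to 0.69. With library totals alone it was 0.86. Of 9 further sulfur genes 8 were tested, 3 fell and none rose. Suox, sulfite oxidase and a gene with 1 annotated transcript, fell 3.05-fold, at 49.6 ± 9.26 CPM in IRF3-2D and 151 ± 11.7 CPM in Ctrl libraries (SD, n = 3 each; adjusted p = 0.00043 by edgeR). Tst, the thiosulfate sulfurtransferase rhodanese, fell 1.68-fold (adjusted p = 0.0017 by edgeR). Both fell with library totals alone, at -1.16 and -0.30.

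Over all pathways, 18 of 38 tested further genes fell and none rose by edgeR, with a median log2 fold change of -0.41. Of all tested genes, 13.1% fell and 13.2% rose, and these shares also stand beside the counts of further genes in each pathway above. At an unadjusted p under 0.05, 0 of the further genes were higher, and DESeq2 and limma-voom each called 0 of them higher. With library totals alone 10 further genes fell and 5 rose, and their median was 0.04. On that scale 5.29% of all tested genes fell and 41.7% rose, and the median of all tested genes was 0.49.

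Ratios of 2 genes within a library were compared for pairs of related enzymes or subunits, of which 4 of 8 had both genes tested. Besides Agxt and Agxt2, the log2 ratio of Mccc1 to Mccc2 was 0.17, 0.16 and 0.41 in IRF3-2D libraries and -0.05, -0.16 and 0.00 in Ctrl libraries, without overlap (difference 0.32, exact permutation p = 0.10, adjusted p = 0.20). The ratio of Bckdha to Bckdhb was 1.75, 1.92 and 1.98 in IRF3-2D libraries and 4.51, 1.81 and 1.74 in Ctrl libraries, where Ctrl replicate 1 stands alone, and the difference of -0.80 (exact permutation p = 0.90) became 0.11 without it. That of Prodh to Prodh2 was -3.27, -1.80 and -3.02 in IRF3-2D libraries and -2.04, -2.97 and -2.18 in Ctrl libraries, with wide spread in both groups (difference -0.30, exact permutation p = 0.70). Both adjusted p were 0.90.

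**Figure D4:**
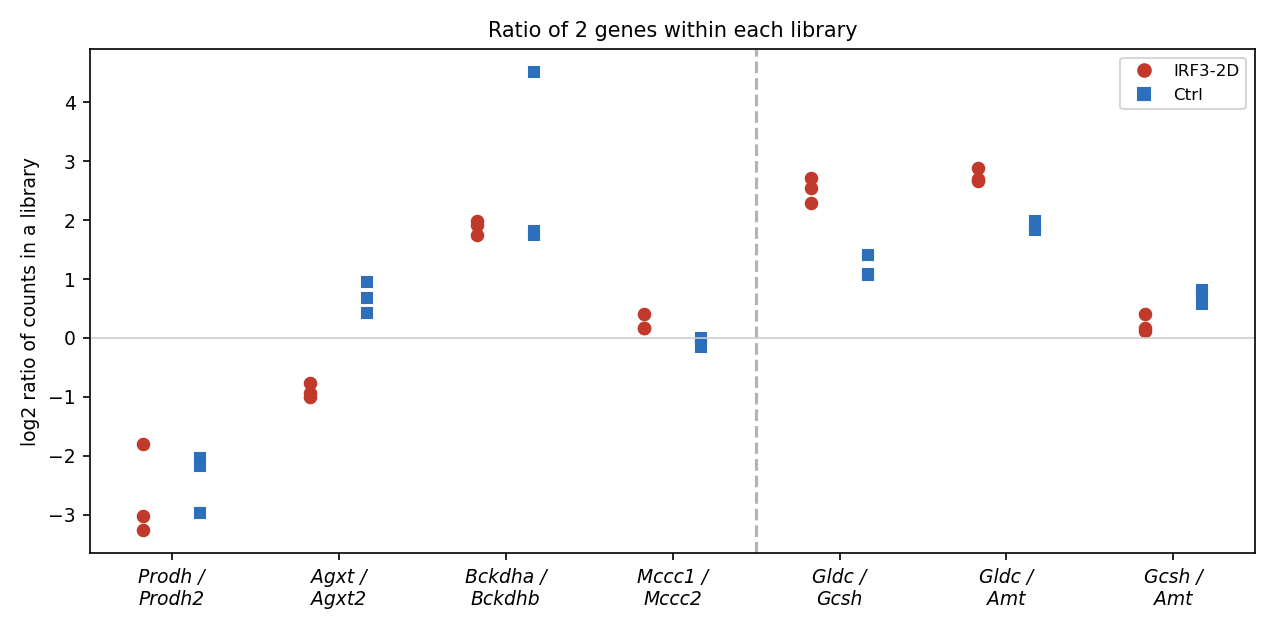
Log2 ratio of the counts of 2 genes within each library, for the 4 pairs tested (left of the dashed line) and for 3 pairs of glycine cleavage subunits chosen after the values were seen (right). IRF3-2D libraries are circles and Ctrl libraries squares. Agxt over Agxt2 lies between -1.0 and -0.76 in IRF3-2D and between 0.42 and 0.95 in Ctrl libraries, and Gldc over Gcsh lies higher in every IRF3-2D library.

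Among genes known for their place in the liver lobule, none of them a member, more were called lower than higher in both zones. Cps1 is also among the hepatocyte markers, and Oat and Gls2 are also among the further pathway genes. Of 8 tested periportal genes 3 fell and 1, Hsd17b13, rose, with summed levels of 13653 to 15881 CPM in IRF3-2D and 21562 to 24689.7 CPM in Ctrl libraries. Of 7 tested pericentral genes 3 fell and 1, Rhbg, rose, with sums of 2240.5 to 3142 CPM in IRF3-2D and 4194 to 9296 CPM in Ctrl libraries. Among all tested genes 13.1% fell and 13.2% rose. Cyp2e1, the largest part of the pericentral sum, was uneven within the Ctrl group, at 3163, 7249 and 6878 CPM. Glul stood at only 0.906 to 3.6 CPM over all libraries, and Lgr5 at 0. The part of zonation in the members' falls was not tested.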

How the data were processed

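RNA of 6 mouse liver samples was sequenced after poly-A selection, from strand-specific libraries, per the labels' protocols. The authors deposited 1 table of estimated counts per gene, not normalized and rounded to whole numbers. The submitters' processing notes list Salmon 1.2.1 and 2 build names, GRCm38 and mm10. Which annotation, gene summing or strand setting was used is not given in the sources. Groups came from the sample titles and columns from the library names. Of 20894 identifiers, 20860 were matched to GENCODE M21 (GRCm38). Genes passing filterByExpr (10802) were compared by edgeR 4.0.16 (R 4.3.3) with its quasi-likelihood F-test, TMM factors (1.12 to 1.23 in IRF3-2D, 0.822 to 0.879 in Ctrl) and group as the only term, with p-values adjusted by Benjamini-Hochberg over all genes tested. SE is the log2 fold change over the square root of F. The fit was tested on simulated data in which 200 genes were changed 2-fold or 4-fold. It recovered 58% of the 2-fold and 80% of the 4-fold changes, and 3.5% of its calls were false. A member that was not called may therefore still differ between the groups. Replicates differed by more than sampling noise (chi-square per degree of freedom 20.1 to 117).

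The level that 0 counts allow (3 counts, counting error only) is 0.202 to 0.249 CPM. Members, the 46 further pathway genes, the marker lists and motifs were chosen with earlier results of these data known. Values in every library are given for up to 4 called members per pathway by adjusted p, for both genes of a pair with a call, and for others chosen after their values were seen; of further genes, up to 2 called per pathway are named, apart from Hdc and Bckdk, named after their values were seen, and 1 that this rule would name is not reported here. Ratios used counts plus 0.5 and a two-sided exact permutation test (scipy 1.17.1). Word sharing used 31-base words of GENCODE M21 transcripts. Alternatives were DESeq2 1.42.0, limma-voom (limma 3.58.1), RLE, upper-quartile and no scaling, 2 other filters, each library left out, a replicate block and, for ratios, 5 added counts. Protein sequences were not used here.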

Additional observations from a re-analysis of the deposited data

How the results depend on the processing

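Scaling moved the results most, and on library totals 5.29% of all tested genes were called lower and 41.7% higher. With library totals alone 7 members were lower and 6 higher, and 10 further pathway genes were lower and 5 higher, and the sign turned for 13 members: Uroc1 (0.19), Amdhd1 (0.12), Ftcd (0.14), Bcat2 (0.0076), Bckdhb (0.37), Mccc1 (0.23), Acad8 (0.20), Hibch (0.20), Hibadh (0.39), Got2 (0.15), Sds (0.12), Amt (0.19) and Cdo1 (0.052). The other fits with all 6 libraries, with tests, scalings, filters or the block changed, called 15 to 21 members lower and 2 higher. Leaving out 1 library gave 12 to 19 members lower, 1 to 2 higher, 12 to 18 further genes lower and 0 higher. Signs of values near 0 also turned: Bckdhb was 0.33 with limma-voom and 0.22 with the replicate block, and without single libraries it ranged from -0.57 to 0.28. Gpt was -0.0019 with DESeq2 and -0.0019 with RLE scaling (-0.059 to 0.077 without single libraries), and Glud1 was -0.0038 and -0.0029 (-0.34 to 0.28). The Bckdha to Bckdhb ratio difference ran from -1.28 to 0.11 without single libraries. The cause of these changes was not tested. Same-numbered libraries of the 2 groups correlated at 0.10, -0.03 and 0.04 in their deviations, not every library correlated best with its own number, and the titles do not say that a number is shared, so the replicate numbers were not taken as pairs. With them as a block 15 members were lower and 2 higher, and 15 further genes were lower and 0 higher. Fah, Aass, Dbt, Pcca and Sdsl had too few counts to be tested.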

Other observations

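Among genes of the same pathways that no comparison used, Shmt1, the cytosolic serine hydroxymethyltransferase, had 0 to 7 counts per library. Bcat1, Dao and Gadl1 had 0 in all 6 libraries. Sdsl was uneven within both groups, with 3, 16 and 0 counts in IRF3-2D libraries and 20, 0 and 0 in Ctrl libraries. Bckdhb in Ctrl replicate 1 (134 counts, 10.9 CPM) and Glud1 in Ctrl replicate 3 (114 counts, 8.91 CPM) stood far below the other libraries of their group, in different libraries.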
